A study of Mus musculus with 3 samples.

Results

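The genes described here are 8 transcripts of the endoplasmic reticulum (ER) stress and integrated stress responses: Atf4, Ddit3, Trib3, Asns, Chac1, Sesn2, Xbp1 and Hspa5. They were taken by gene symbol from the 32287 features of a mouse single-cell RNA count matrix, and all 8 were found. Ddit3 is listed there under 2 gene identifiers, 1 of which held 953 molecules and the other 0, and both were summed. The cells came from 1 culture called PC: esophageal organoids of mice carrying floxed Trp53 alleles, in which an adenovirus carrying Cre and EGFP removed Trp53 and CRISPR/Cas9 editing removed Cdkn2a. The cells expressed Cas9 throughout, received a library of DNA barcodes, went through 3 passages and were sorted as live RFP-positive cells before droplet capture with a 3′ kit. Before that, cells dissociated from the organoids had been grown in DMEM with serum, at first with the ROCK inhibitor Y-27632 and later without it. All described cells share these edits and this history, and a line with a further Notch1 edit that the study names was not analysed here. The labels call the tissue esophageal cancer, and Krt5, a keratin of the basal squamous layer, was seen in 67.6% to 83.6% of the cells of clusters 1, 2, 3, 5, 6 and 9 described below and in 6.14% to 9.08% of clusters 4, 7 and 8. The matrix has 1 library group and no unedited, untreated or stressed culture, so every value below describes this culture and no difference could be set against a spread between replicates.

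Cells with too much unfolded protein in the ER or too few amino acids slow translation through phosphorylation of eIF2, and the transcription factor ATF4 is then made in larger amounts. ATF4 raises genes of amino acid supply, and, when the stress lasts, genes tied to growth arrest and death. In parallel the ER sensor IRE1 splices the mRNA of XBP1, which together with ATF6 raises chaperones and the machinery of protein folding and secretion. Atf4 and its targets Ddit3, Trib3, Asns, Chac1 and Sesn2 are called the ATF4 arm here, and Xbp1 and Hspa5 the XBP1 arm. Hspa5 is also raised by ATF6. Counts of 3′ ends show neither the splicing of Xbp1 nor the translation of Atf4, the steps at which both factors are mainly switched on.

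Of 18116 cell barcodes, 14925 passed the filter of at least 500 genes, at least 1000 unique molecules (UMIs) and at most 20% mitochondrial UMIs. The kept cells held between 1000 and 23453 UMIs, with a median of 2955. All 18116 barcodes were distinct. Levels are in CPM, the UMIs of a gene per 1000000 UMIs of the same cells, and ranges in brackets are 95% intervals, exact Poisson for levels and exact binomial for shares of cells. They cover counting error only. To compare cells at equal depth, each was also thinned at random to 1500 UMIs, which kept 13281 cells and left out 1644. Below, high cells, zero cells and cells with at least 1 target UMI are groups set on thinned counts. Levels in these groups come from unthinned counts, so zero cells can still hold the transcripts.

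The promoter windows are shown first because they hold the DNA words through which the arms are known to be read. In the RefSeq promoters of build GRCm38.p6 (250 bases before to 50 after each start), all 8 genes had an entry. They were searched on both strands for the core of the amino acid response element bound by ATF4 (TGATGNAA), the ER stress element (CCAAT and CCACG with 9 bases between them), a second form of it (ATTGG and CCACG with 1 base between them) and the unfolded protein response element (TGACGTGG). A match was found in 4 of the 8. Capitals mark the match in the stretches below, each written 5′ to 3′ on the strand of its gene.
Asns, chr6:7693214-7693243, minus strand: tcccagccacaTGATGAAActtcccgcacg
Chac1, chr2:119350992-119351228, plus strand: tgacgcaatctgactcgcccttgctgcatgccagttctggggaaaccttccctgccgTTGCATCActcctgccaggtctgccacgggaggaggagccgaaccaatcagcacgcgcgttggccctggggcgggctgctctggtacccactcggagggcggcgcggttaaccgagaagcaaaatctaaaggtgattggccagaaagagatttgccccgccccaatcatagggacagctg
Trib3, chr2:152344028-152344057, minus strand: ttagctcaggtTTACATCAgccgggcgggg
Hspa5, chr2:34772020-34772048, plus strand: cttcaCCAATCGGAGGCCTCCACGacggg
The ATF4 word begins 23 bases before the RefSeq start of Asns, 193 before that of Chac1 on the opposite strand, and at base 15 of the transcribed part of Trib3 on the opposite strand. The ER stress element of Hspa5 begins 65 bases before the start. Atf4, Ddit3, Sesn2 and Xbp1 held none of the 4 words in this window.

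On build GRCm38 with GENCODE M21, all 8 are protein-coding genes: Atf4 (ENSMUSG00000042406) at chr15:80255184-80257541, Ddit3 (ENSMUSG00000025408) at chr10:127290774-127296288, Trib3 (ENSMUSG00000032715) at chr2:152337422-152344032, Asns (ENSMUSG00000029752) at chr6:7675169-7693254, Chac1 (ENSMUSG00000027313) at chr2:119351229-119354381, Sesn2 (ENSMUSG00000028893) at chr4:132492032-132510501, Xbp1 (ENSMUSG00000020484) at chr11:5520659-5525893 and Hspa5 (ENSMUSG00000026864) at chr2:34771970-34777547. Trib3, Asns and Sesn2 lie on the minus strand. The Asns and Hspa5 words lie inside the GENCODE gene, whose start is upstream of the RefSeq start, and the Trib3 word lies before the GENCODE start.

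Across all 32851 promoters in the table, 3.97% held the ATF4 word and 0.119% held the ER stress element. In a list of 47 genes of the ATF4 arm taken from textbook knowledge, the ATF4 word was found in 15 of 45 promoters (33.3%) and the ER stress element in 0. The list of 40 chaperone and ER genes of the XBP1 and ATF6 arms held the ER stress element in 9 of 39 promoters (23.1%) and the ATF4 word in 2 (5.13%). These genes were listed as known targets, so the shares describe the lists and are not evidence that either factor acted in this culture.

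Atf4 mRNA, which encodes the shared transcription factor of the integrated stress response, gave 4393 UMIs, or 96.7 CPM (95% interval 93.8 to 99.6). It was seen in 24.5% of cells (23.8 to 25.2), and in 13.9% after thinning. Ddit3 (CHOP), a factor linked to death under lasting ER stress, stood at 20.97 CPM from 953 UMIs and was seen in 5.86% of cells (5.48 to 6.24). Asns, which makes asparagine, reached 14.1 CPM from 640 UMIs in 4.02% of cells. Chac1, which degrades glutathione, gave 344 UMIs, or 7.57 CPM, in 1.90% of cells. Sesn2, which restrains mTORC1 when leucine is short, gave 234 UMIs, or 5.15 CPM, in 1.53% of cells. Trib3, a pseudokinase that restrains AKT and ATF4 itself, had the fewest molecules, 92 UMIs in 88 cells, or 2.02 CPM (1.63 to 2.48). In the great majority of cells the 5 ATF4 targets were thus at 0 at this depth.

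Xbp1 gave 2407 UMIs, or 53.0 CPM (50.9 to 55.1), and was seen in 14.6% of cells (14.04 to 15.2). Hspa5 encodes BiP, the main chaperone of the ER, which also holds the stress sensors inactive. It gave 23654 UMIs, or 520.5 CPM (513.9 to 527.2), and was seen in 69.0% of cells, and in 50.5% after thinning (49.6 to 51.3). UMIs of a 3′ kit do not scale with transcript length, and capture can differ between transcripts, so these levels are read gene by gene. No cluster of this culture is of a type known to lack these transcripts, so free RNA was gauged with Vim, which was seen in 90.7% of the mesenchymal-like cells described below and in at most 4.36% of the cells of each other cluster. Krt5, a more abundant transcript than Vim, was seen in 9.08% of the mesenchymal-like cells and 6.14% of cluster 8. Whether that was free RNA was not tested.

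After thinning, the variance over cells was between 0.992 and 1.08 times the mean for 7 of the 8 genes, where random sampling gives 1. These 7 genes averaged only 0.00294 to 0.151 thinned UMIs per cell. At means this low the ratio stays near 1 even where levels differ between cells, so it does not show that their spread was random. Hspa5, with a mean of 0.784, stood at 1.42. The median of this ratio was 1.05 over the 2613 genes that averaged 0.1 thinned UMIs or more, and Hspa5 ranked 199 from the top while Atf4 ranked 1947. The highest single cell held 42 UMIs of Hspa5, 7 of Atf4, 5 each of Ddit3 and Chac1, 4 of Xbp1, 3 of Asns and 2 each of Trib3 and Sesn2.

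Level also varied with the depth of the cell for part of the arm. Chac1 stood at 3.78, 4.08, 7.12 and 11.04 CPM in the quartiles of total UMIs from the shallowest to the deepest cells, and Trib3 at 1.37, 1.78, 1.60 and 2.67. Atf4 ranged only from 94.0 to 101.4 CPM over these quartiles, and Hspa5 from 502.5 to 533.8. With mitochondrial share, Asns fell from 18.2 CPM in the lowest quartile to 10.6 in the highest. Chac1 stood at 8.59 and 6.85 CPM in these quartiles, with overlapping intervals.

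To see whether the genes follow cell state, cells were clustered on 2000 variable genes after every gene of the pathway lists had been held out. Of 9 clusters, 4 met the marker rule for a name: cycling-like cells (cluster 3, 2073 cells), mesenchymal-like cells (cluster 4, 1961 cells, led by Grem1, Ccn5 and Vim), simple epithelial-like cells (cluster 8, 114 cells, led by Ly6c1, Pate14 and Krt7) and interferon-responding-like cells (cluster 9, 102 cells). The others stayed unnamed: cluster 1 (4457 cells, led by Prl2c3), cluster 2 (3370, Krt7 and Sorbs2), cluster 5 (1373, Ltf and Lcn2), cluster 6 (825, Sncg and Fst) and cluster 7 (650, Zfpm2 and Aff2). Cluster 7 had a median of 1186 UMIs per cell and 10.4% mitochondrial UMIs, so its values rest on shallow cells.

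**Figure D1:**
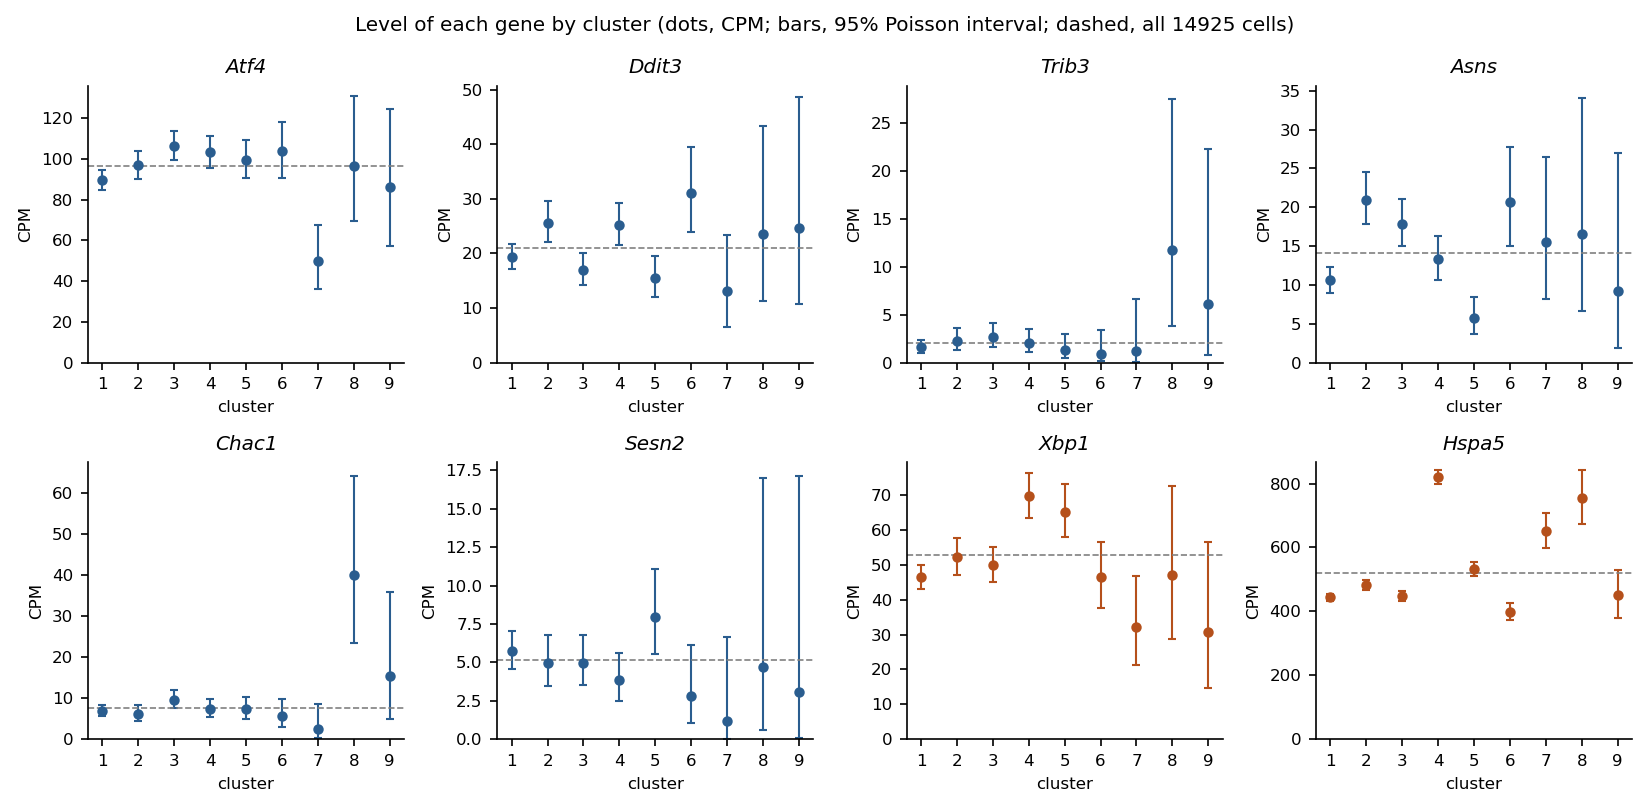
Level of each of the 8 genes in CPM (vertical axes, linear from 0) in the 9 clusters (horizontal axes); dots are summed UMIs as CPM, bars exact 95% Poisson intervals, dashed lines the level over all 14925 cells. Hspa5 stands at 820.8 CPM in cluster 4 and 754.3 in cluster 8, and Chac1 at 40.1 in cluster 8 with a wide interval.

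Hspa5 was the gene most clearly tied to a cluster. It reached 820.8 CPM (799.4 to 842.7) in the mesenchymal-like cells, 754.3 (673.9 to 841.7) in the simple epithelial-like cells and 651.8 (598.4 to 708.8) in cluster 7. The first 2 of these intervals overlapped. In the other 6 clusters it lay between 399.0 and 533.6 CPM. The mesenchymal-like cells held 1.75 times (1.70 to 1.81) the Hspa5 level of all other cells. Their highest single cell had 15 Hspa5 UMIs, and 67.3% of thinned mesenchymal-like cells held an Hspa5 UMI, against 43.96% to 50.97% in clusters 1, 2, 3, 5, 6 and 9.

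Xbp1 was also highest in the mesenchymal-like cells, at 69.8 CPM (63.6 to 76.3), followed by cluster 5, the Ltf and Lcn2 cells, at 65.3 (57.9 to 73.3). These intervals overlapped, and both lay above the 46.5 CPM (43.1 to 50.1) of cluster 1. The interferon-responding-like cells were lowest, at 30.8, but with 10 UMIs and an interval of 14.8 to 56.6.

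In the ATF4 arm, Atf4 itself lay between 86.2 and 106.5 CPM in 8 clusters and at 50.1 (36.1 to 67.7) in the shallow cluster 7. Neighbours in the order overlapped, but 9 of 36 pairs of clusters lay apart, among them cluster 1, at 89.5 (84.8 to 94.4), below cluster 3 at 106.5 (99.4 to 113.9) and cluster 4 at 103.2 (95.7 to 111.2). The 5 targets summed were highest in the simple epithelial-like cells, at 96.7 CPM (69.4 to 131.1), where Hspa5 was high too. Ddit3 was highest in cluster 6, at 31.0 CPM (24.0 to 39.4), and stood at 25.6 in cluster 2 and 25.2 in the mesenchymal-like cells, against 15.5 (12.0 to 19.6) in cluster 5. Asns was highest in clusters 2 and 6, at 20.9 (17.8 to 24.5) and 20.7 (15.01 to 27.7) CPM, and lowest in cluster 5, at 5.68 (3.68 to 8.39). Cluster 5 thus paired a high Xbp1 level with the lowest Asns level. Sesn2 was between 1.19 and 7.96 CPM, and no cluster's interval lay apart from another's.

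A smaller set of Asns-rich cells appeared when the clustering was changed. At resolutions of 0.4 and 1.0, with another random seed, and with at most 10% mitochondrial UMIs, the highest Asns level was in a group of 242 to 313 cells that came mostly out of cluster 6 and was led by Prl2c5, Sncg, Fst or Ptn. Asns stood at 35.1 to 40.8 CPM there, 2.56 to 2.98 times the level of all other cells. At resolution 0.4 this group held 28 Asns UMIs (interval 27.1 to 59.0 CPM). Mthfd2, the mitochondrial folate enzyme, stood there at 36.4 CPM against 19.3 in all other cells (1.22 to 2.81 times). Psat1, a serine synthesis enzyme, was at 13.1 against 16.9 CPM (0.354 to 1.48 times). In the groups of the other clusterings Mthfd2 stood at 1.59 to 1.88 times the rest. Psat1 stood at 1.08 to 1.34 times there, each interval including 1, so its direction turned on the clustering. Phgdh, another serine synthesis enzyme, stood at 0.757 to 0.851 times the rest in the groups of all 4 changed clusterings, each interval including 1. In the same groups Chac1 was at 7.52 to 8.74 CPM and Ddit3 at 21.3 to 23.9, beside 7.57 and 20.97 over all cells.

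Chac1 and Trib3 were highest in the simple epithelial-like cells. Chac1 reached 40.1 CPM (23.3 to 64.2) there, 5.52 times (3.17 to 8.97) the level of all other cells, from 17 UMIs in 9 of 114 cells, 5 of them in 1 cell. Trib3 reached 11.8 CPM (3.83 to 27.5), 6.10 times (1.93 to 14.8) the rest, from 5 UMIs in 5 cells. Elsewhere Chac1 lay between 2.38 and 15.4 CPM and Trib3 between 0.939 and 6.16. Of the ATF4 arm list, 32 genes reached 10 CPM over all cells. In the simple epithelial-like cells 12 of them were at least 1.5-fold higher than in the rest, against 16.1% of all genes at that level, and 3 were lower by that fold, against 21.6%. The list's median ratio was 1.21 and that of all genes 1.01. Among them were the factor Atf3 at 3.43, Psph, the last enzyme of serine synthesis, at 2.62, and Nars at 2.40, while Vldlr at 0.36 and Cebpg at 0.43 were lowest. These 114 cells give few UMIs per gene. Of the XBP1 and ATF6 list, 6 of 37 genes were higher by that fold and 5 lower. Hspa5 stood at 1.46 times the rest.

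In the mesenchymal-like cells, 17 of 37 genes of the XBP1 and ATF6 list were at least 1.5-fold higher than in all other cells, against 14.1% of all genes at 10 CPM over all cells, and 1 was lower by that fold, against 20.5%. The list's median ratio was 1.48, beside 0.947 for all genes. Sec24d, a coat protein of vesicles leaving the ER, stood at 2.65, Sdf2l1 at 2.57, the chaperone Hsp90b1 at 2.34, Edem1 at 2.27 and Hyou1 at 2.09. Herpud1, which serves the degradation of ER proteins, went the other way, at 0.61. The ATF4 list was split, with 8 of 32 genes higher and 9 lower: Atf5 at 3.70 and Cebpb at 2.07 were high, and the cystine carrier Slc7a11 at 0.19, Psat1 at 0.25 and the carrier subunit Slc3a2 at 0.36 were low. Of 16 genes of the sensors and of eIF2, 3 were higher by that fold and 0 lower, with a median of 1.07: Ppp1r15b at 2.08, the sensor Atf6 at 1.86 and the kinase Eif2ak2 at 1.59. Of the 5 ATF4 targets among the 8 genes, none was past 1.5-fold in these cells, where Ddit3 had 25.2 CPM and Asns 13.3.

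The question of which genes share cells was first put to pairs. For each of the 28 pairs, the cells with a UMI of both were counted and divided by the number that the product of the shares gives within 10 equal groups of cells by depth. A value of 1 means that the genes met as often as their shares and the depth imply.

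**Figure D2:**
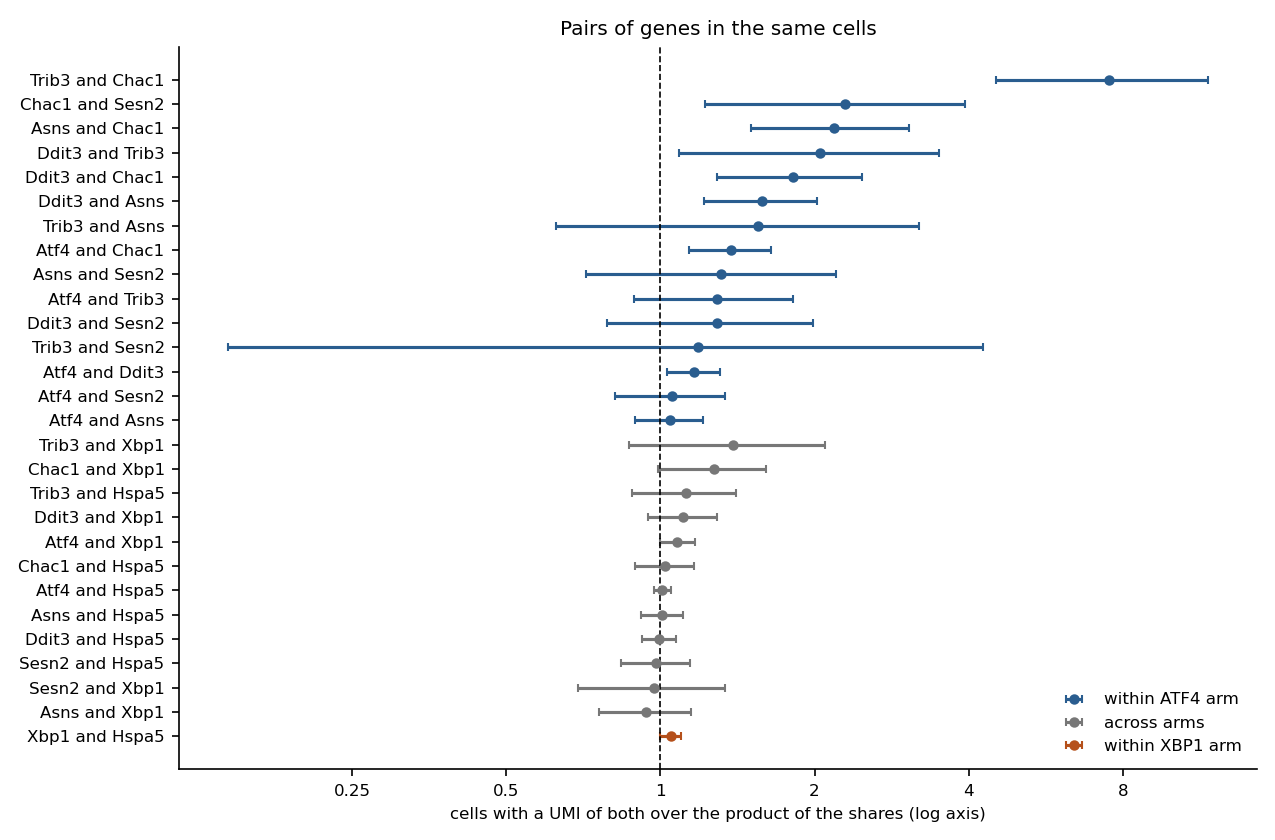
Cells with a UMI of both genes over the number given by the product of their shares within depth groups (horizontal axis, log scale), for 28 pairs (vertical axis); dots are ratios, bars 95% Poisson intervals on the observed number. Trib3 with Chac1 stands at 7.51, and the 12 pairs across the arms lie between 0.938 and 1.38.

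Within the ATF4 arm, 8 of 15 pairs had an interval above 1. For comparison, 1.9% of the pairs that these 6 genes form with 11798 other genes had one. The median of the 15 ratios was 1.37, and the same 8-pair count was reached when cells were matched on depth and cluster together. The strongest pair was Trib3 with Chac1, at 7.51 (4.52 to 11.7): 19 of 88 cells with Trib3 held Chac1 (21.6%, 13.5 to 31.6), against 265 of 14837 cells without it (1.79%). Among the 11798 genes, Chac1 had the highest ratio with Trib3, and Trib3 the highest with Chac1.

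Of the 7 other pairs past 1, 4 included Chac1. Chac1 with Sesn2 stood at 2.30 (1.22 to 3.93) from 13 cells, with Asns at 2.18 (1.5 to 3.06) from 33 cells, with Ddit3 at 1.81 (1.29 to 2.48) from 39 cells, and with Atf4 at 1.37 (1.14 to 1.64) from 117 cells. Ddit3 with Trib3 gave 2.05 (1.09 to 3.50) and Ddit3 with Asns 1.58 (1.22 to 2.02). Atf4 with Ddit3 was the weakest of the 8, at 1.16 (1.03 to 1.31). Among the genes paired with Atf4, Chac1 ranked 11 of 11798. Sesn2 passed with Chac1 alone, and its pairs with Atf4 (1.05), Ddit3 (1.29), Trib3 (1.18, 2 cells) and Asns (1.31) had intervals that included 1.

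Across the arms, 0 of 12 pairs had an interval above 1 and 0 had one below, with a median of 1.01. The 6 pairs with Hspa5 had little room above 1, since Hspa5 was seen in 69.0% of cells: if every cell with Trib3 had also held Hspa5, the ratio would have been 1.31, and for Chac1 1.29. Ratios near 1 there do not show that the genes met at random. For the pairs with Xbp1 these ceilings were 3.62 or more. For Hspa5 and for Xbp1 with all other genes, 2.59% and 2.57% of pairs were above 1. Hspa5 met Ddit3 at 0.995 (0.919 to 1.08), Asns at 1.01 and Atf4 at 1.01 (0.971 to 1.05). Xbp1 met Trib3 at 1.38 (0.867 to 2.09), Chac1 at 1.27 (0.988 to 1.61) and Atf4 at 1.08 (0.998 to 1.17). In thinned cells, where 50.5% held Hspa5, it met Trib3 at 1.303 (25 cells) and Chac1 at 1.15 (74 cells). Matched on cluster too, 1 pair across the arms, Chac1 with Xbp1, passed. Xbp1 with Hspa5, the pair of the XBP1 arm, stood at 1.05 (0.998 to 1.10).

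Each ATF4 target was then set against the other 4. In thinned cells with 2 or more UMIs of the rest of the arm, 37 to 70 cells, Trib3 was 10.8 times (2.87 to 29.0) its level in cells with 0, Asns 3.27 times (1.2 to 7.17), Ddit3 2.52 times (0.921 to 5.5) and Chac1 0.957 times (0.024 to 5.37), from 6 UMIs or fewer each. Sesn2 had 0 UMIs there, and 3 UMIs, the limit taken here for a count of 0, would be 2.81 times. These values turned on which UMIs the thinning kept: with another seed Chac1 stood at 9.60 (4.55 to 17.9), and after thinning to 1000 UMIs Sesn2 stood at 8.14 (1.67 to 24.1). Because these cells were so few, a lower threshold of 1 UMI was added after seeing the data. With it, Trib3 was 3.73 times (2.09 to 6.34) its level in cells with 0, Chac1 2.74 times (1.99 to 3.71), Asns 2.13 times (1.60 to 2.77) and Ddit3 1.8 times (1.37 to 2.32). Sesn2 stood at 1.43 (0.841 to 2.28). Atf4, set against all 5 targets, was at 1.26 (1.13 to 1.41). Its mRNA was 121.1 CPM in the 886 cells with a target UMI after thinning and 95.8 in the 12395 with 0 after thinning. In the XBP1 arm, Xbp1 stood at 61.6 CPM in the 2443 cells with 2 or more thinned Hspa5 UMIs. It stood at 50.1 in the 6576 with 0 thinned Hspa5 UMIs, a ratio of 1.23 (1.1 to 1.37).

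Whether the arms rise together was then asked along each sum. The 5 targets together reached 2 UMIs or more in 77 thinned cells, called ATF4-target-high, and 0 in 12395. Hspa5 stood at 962.6 CPM (842.9 to 1094) in the high cells and 514.4 (507.4 to 521.4) in the zero cells, a ratio of 1.87 (1.64 to 2.13). Of the 3 genes outside the sum, Hspa5 alone was past 1.5-fold, where 11.8% of all genes at 10 CPM over all cells were, and Xbp1 joined it, at 1.52, when cells of the same cluster were compared (11.2% of all genes). Xbp1 was at 78.5 against 53.0 CPM, a ratio of 1.48 (0.891 to 2.32), and Atf4 at 140.5 against 95.8, a ratio of 1.47 (1.01 to 2.05). With 77 cells the ratio for Hspa5 depended on which cells entered: it was 2.37 with another thinning seed and 3.87 after thinning to 1000 UMIs.

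With all 886 cells that had at least 1 target UMI, a grouping also added after seeing the data, the ratio was 1.18 (1.12 to 1.24) for Hspa5 and 1.12 (0.956 to 1.31) for Xbp1. In the other direction, 990 cells had 3 or more thinned UMIs of Xbp1 and Hspa5, called XBP1-arm-high, and 6095 had 0. Before thinning, those 6095 cells held 4322 Hspa5 UMIs. The 5 targets together gave 70.3 CPM (61.6 to 80.0) in the high cells and 48.9 (45.9 to 52.1) in the zero cells, a ratio of 1.44 (1.24 to 1.66). By gene, the ratio was 3.22 (1.60 to 6.24) for Trib3, from 15 and 28 UMIs, 1.8 (1.24 to 2.57) for Chac1, 1.47 (1.17 to 1.83) for Ddit3, 1.21 (0.894 to 1.60) for Asns, 1.02 (0.583 to 1.69) for Sesn2 and 1.21 (1.08 to 1.35) for Atf4. Without 10 cells of extreme Hspa5, described below, Trib3 stood at 2.18 (0.943 to 4.61) and Ddit3 at 1.25 (0.975 to 1.58), whose intervals then include 1, Chac1 at 1.6 (1.08 to 2.32), Asns at 1.10 (0.799 to 1.48) and Atf4 at 1.16 (1.04 to 1.303). Of Atf4, Ddit3 and Asns, the 3 genes of the arm with 10 CPM over all cells, 0 were past 1.5-fold with all cells included, where 5.07% of all genes were.

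**Figure D3:**
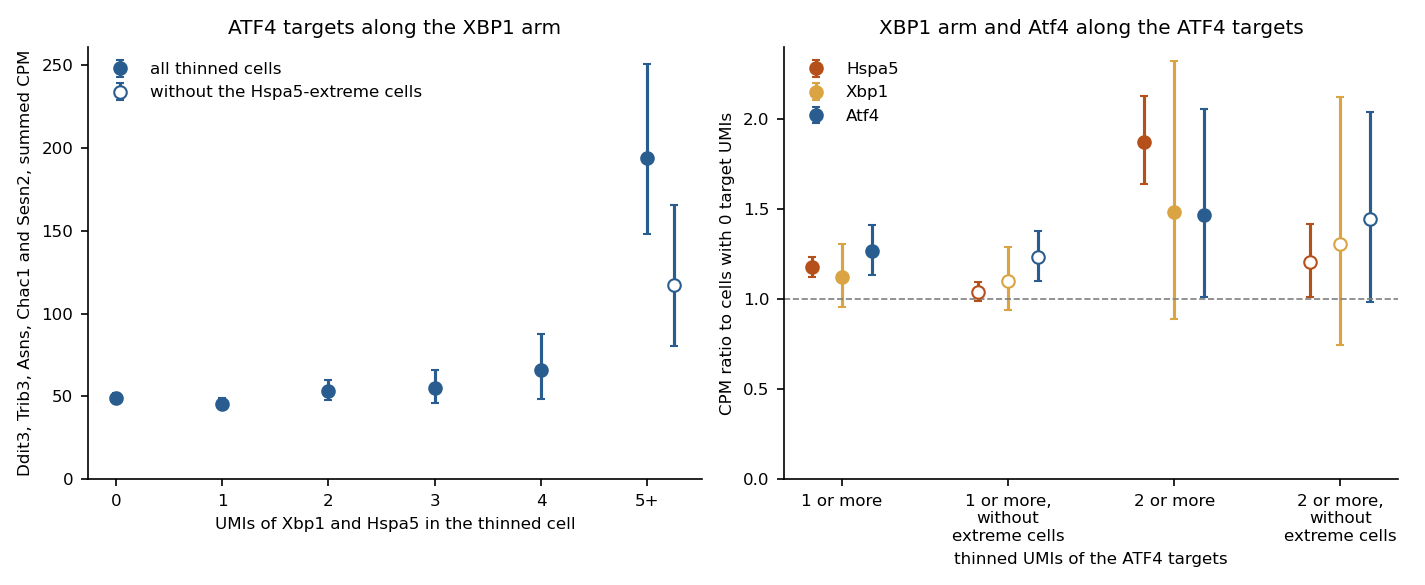
Left, summed CPM of the 5 ATF4 targets (vertical axis) in thinned cells with 0 to 5 or more UMIs of Xbp1 and Hspa5 (horizontal axis); the open dot leaves out the cells with 20 or more Hspa5 UMIs. Right, CPM ratio of Hspa5, Xbp1 and Atf4 in cells with 1 or more or 2 or more target UMIs to cells with 0 (dashed line, 1), with (filled) and without (open) those cells; bars are 95% intervals. The targets stay between 45.6 and 65.9 CPM up to 4 UMIs and reach 194.3 at 5 or more, and 117.5 without the extreme cells.

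With 0, 1, 2, 3 and 4 thinned UMIs of Xbp1 and Hspa5, the 5 targets summed to 48.9, 45.6, 53.5, 55.2 and 65.9 CPM. In the 92 cells with 5 or more they reached 194.3 CPM, and without the 10 cells 117.5. Over single cells, the sums of the arms had a Pearson correlation of 0.0527 across 13281 thinned cells of this 1 library and a Spearman correlation of 0.0063, which in counts this sparse is no finding. Of the 77 ATF4-target-high cells, 9 were XBP1-arm-high (11.7%, 5.49 to 21.03), against 912 of 12395 target-zero cells (7.36%, 6.90 to 7.83). The overlap of the sets was 9 of 77 and 9 of 990 (0.909%). The ratio of the shares was 1.59 (0.724 to 3.03). It was above 1 under each of 12 alternatives, with an interval above 1 in 8 of them. These alternatives re-cut the same cells, so their number is no independent support. The ratio was 2.76 (1.37 to 4.97) with a stricter cell filter and 2.59 (1.41 to 4.38) with high doublet scores left out. With another seed it was 2.62 (1.43 to 4.43), and after thinning to 2500 UMIs 1.77 (1.26 to 2.42). Within clusters it was 1.61 (0.735 to 3.05). With no limit on mitochondrial UMIs the values over thinned cells did not change at all, so this 1 of the 12 alternatives was no check. Without the 10 cells the ratio was 1.10 (0.404 to 2.41).

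The values across the arms moved with 10 cells. These held 22 to 42 UMIs of Hspa5, while the next highest cell had 15. They were picked out after their values were seen, so what follows describes them. Hspa5 made 2190 to 15016 CPM of their RNA, and over the 10 cells it was 14.3 times the level of the rest. The cut was on UMIs and not on level. The cell at 2190 CPM had 10046 UMIs in all, so it met the cut partly through its depth. That cell held 2 of the Asns and 2 of the Chac1 UMIs given below. It was not among the cells with 5 or more thinned UMIs of Xbp1 and Hspa5. They fell into clusters 1, 2, 3, 5 and 9, with none in the mesenchymal-like cluster. Their median was 3592 UMIs and 2.26% mitochondrial UMIs, and their doublet scores had a median of 0.068, beside 0.070 in the rest.

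**Figure D4:**
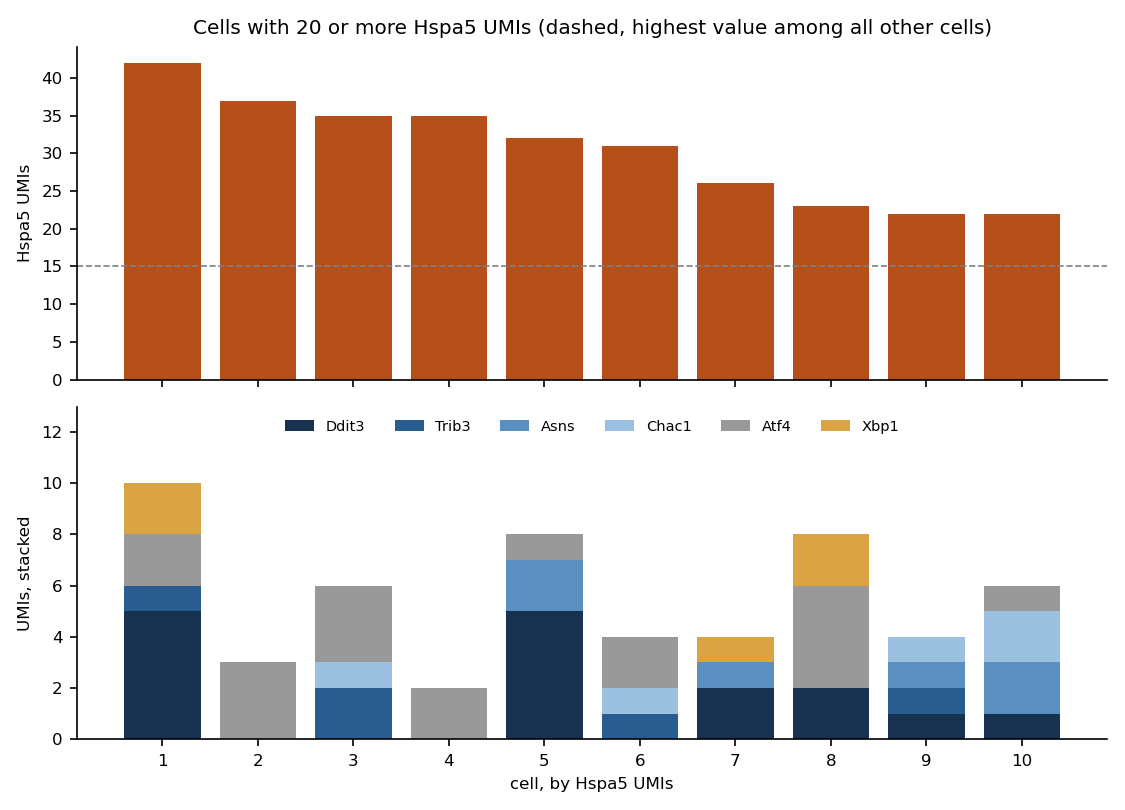
The 10 cells with 20 or more Hspa5 UMIs, ordered by that number (horizontal axes). Upper panel, Hspa5 UMIs per cell with the highest value among the other cells, 15, dashed; lower panel, UMIs of Ddit3, Trib3, Asns, Chac1, Atf4 and Xbp1 stacked per cell. Of the 10 cells, 8 hold an ATF4 target and 3 hold Xbp1.

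Of these 10 cells, 8 held a UMI of at least 1 ATF4 target (44.4% to 97.5%), against 12.5% of the other 14915. Ddit3 gave 16 UMIs in 6 cells, with 5 in each of 2 cells, and stood 18.7 times (10.7 to 30.6) above the rest. Trib3 gave 5 UMIs in 4 cells, 63.0 times the rest (19.97 to 152.8), Chac1 5 UMIs in 4 cells, 16.2 times (5.22 to 38.1), and Asns 6 UMIs in 4 cells, 10.4 times (3.80 to 22.7). Atf4 was at 434.9 CPM, 4.51 times the rest (2.67 to 7.14). Sesn2 had 0 UMIs, where 3 would be 14.1 times the rest. Xbp1 gave 5 UMIs in 3 cells, 2.28 times the rest with an interval of 0.741 to 5.34.

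Other ER genes were high in the same 10 cells. The 38 genes of the XBP1 and ATF6 list apart from Xbp1 and Hspa5 summed to 51 to 133 UMIs per cell and 3.62 times (3.36 to 3.89) the rest. Derl3, of ER-associated degradation, stood at 137.1 times from 7 UMIs (52.7 to 301.6), Creld2 at 15.4, Sdf2l1 at 11.8, the secreted factor Manf at 6.95 and Hsp90b1 at 6.04. The 41 other genes of the ATF4 list summed to 2.47 times (2.17 to 2.80). Genes of the immediate early and dissociation list, 15 in all, summed to 0.931 times the rest (0.786 to 1.10).

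The ratios across the arms were then taken without the 10 cells. Since these were picked by Hspa5, leaving them out lowers Hspa5 wherever they lie, and the values describe how much they carried. Hspa5 in cells with at least 1 target UMI went from 1.18 to 1.04 (0.987 to 1.10), and in the ATF4-target-high cells from 1.87 to 1.20 (1.01 to 1.42). The 5 targets in XBP1-arm-high cells went from 1.44 to 1.26 (1.07 to 1.46), and in the 83 remaining cells with 5 or more UMIs from 194.3 to 117.5 CPM (80.4 to 165.9). Among these 83 cells, Asns was at 36.7 CPM and Ddit3 at 51.4. The Pearson correlation of the sums fell from 0.0527 to 0.0160.

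Cells high in the ATF4 arm looked different when picked by Chac1. In 12 cells with 3 to 5 Chac1 UMIs, also picked out after their values were seen and none of them among the 10 cells above, Hspa5 had 2 to 11 UMIs per cell and 1.88 times the level of the rest (1.41 to 2.46). Their Trib3 level was 38.0 times the rest from 4 UMIs (10.1 to 100.7), Ddit3 7.07 times (3.05 to 14.0) and Atf4 2.86 times (1.60 to 4.73). Intervals included 1 for Asns at 3.94 times (0.809 to 11.6) and Sesn2 at 3.59 times (0.090 to 20.2), from 1 UMI. The same held for Xbp1, at 1.39 times (0.379 to 3.57). The 41 other genes of the ATF4 list summed to 2.56 times (2.29 to 2.85), close to their 2.47 in the cells with extreme Hspa5. The 38 genes of the XBP1 and ATF6 list summed to 1.31 times (1.18 to 1.45), where the cells with extreme Hspa5 had 3.62. The immediate early and dissociation list summed to 1.20 times (1.05 to 1.35), where the cells with extreme Hspa5 had 0.931, and its part in these values was not tested. The median depth of these 12 cells was 4288.5 UMIs, above the 2955 of all cells.

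The wider lists were read along the same sums. Counts are over genes with at least 10 CPM over all cells, a floor set after seeing the data, because a floor on either group lets a gene in through the cells where it is high. In cells with at least 1 target UMI, 5 of 30 genes of the ATF4 list were at least 1.5-fold higher than in target-zero cells, where 0.332% of all genes were. The list's median ratio was 1.28, beside 1.00 for all genes. Mthfd2 stood at 2.40 (1.98 to 2.90), the factor Atf5 at 1.71, Psph at 1.68, the factor Atf3 at 1.67 and Slc7a11 at 1.55. The leucine carrier Slc7a5, at 12.9 against 6.85 CPM, is not counted. Ddit4 at 0.95 and Cebpb at 1.01 were lowest. Of the XBP1 and ATF6 list, 1 of 37 genes was past that fold, Herpud1 at 1.52, with Ero1l, the oxidase of the ER, at 1.46 and Creld2 at 1.37 next. Txndc11 at 0.80 and Hyou1 at 0.81 were lowest. Without the 10 cells the counts were 5 of 30 and 0 of 37, again beside 0.332%, and Herpud1 stood at 1.48.

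In the 77 ATF4-target-high cells, 15 of 30 genes of the ATF4 list were past 1.5-fold, beside 11.8% of all genes, with a median of 1.51 beside 1.01. Mthfd2 stood at 4.05, Psph at 3.34, Pck2 at 2.83, Atf5 at 2.70 and Shmt2 at 2.45, and Yars at 0.95 and Wars at 1.00 were lowest. A further 7 genes of the list reached 10 CPM in the high cells but not over all cells, so they had to be high there and are not counted. Among them were Fgf21 with 12.4 against 1.805 CPM and Stc2 with 12.4 against 2.08, from 3 UMIs each, Slc7a5 with 33.0 against 6.85, and Slc6a9 and Gpt2. On the planned floor of 10 CPM in either group the count was 22 of 37, beside 17% of all genes, and it is given for the record alone. The XBP1 and ATF6 list had 11 of 37 past 1.5-fold, with a median of 1.24: Creld2 stood at 2.95, Ero1l at 2.55, Edem1 at 2.22, Sdf2l1 at 1.97 and Hspa5 at 1.87, and Hyou1 at 0.38 and Uggt1 at 0.69 were lowest. Derl3, at 20.7 against 1.11 CPM from 5 UMIs, entered through the high cells alone. Some of the 77 cells were among those with extreme Hspa5. Without them 74 remained, and Hspa5 stood at 1.20. Creld2, Sdf2l1 and Derl3 were high in the cells with extreme Hspa5. The lists were not counted here without those cells, so how much they carried was not tested. Of 16 sensor and eIF2 genes, 2 were past that fold, with Eif2b4 at 1.85 and Ppp1r15b at 1.69, and 1 was lower by it. At 2-fold the ATF4 list had 9 of 30 genes and the XBP1 and ATF6 list 3 of 37, where 2.65% of all genes were.

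Along the XBP1 arm, 10 of 35 genes of its own list were past 1.5-fold in the high cells, where 5.07% of all genes were (6.64% on the planned floor, with the same count), led by Creld2 at 1.89, Dnajc3 at 1.76, Sdf2l1 at 1.76, Hsp90b1 at 1.74 and Sec24d at 1.72. Crebrf at 1.01 and Derl2 at 1.02 were lowest. When the high cells were set against zero cells of their own cluster, 2 of 35 remained past that fold, Creld2 at 1.74 and Herpud1 at 1.57, where 0.724% of all genes were. The ATF4 list had 3 of 32 genes past 1.5-fold before matching, Atf5 at 2.24, Mthfd2 at 1.52 and Eprs at 1.51, and 2 within clusters, Atf5 at 1.55 and Mthfd2 at 1.52. Chac1, at 12.4 against 6.91 CPM, is not counted. Psat1 at 0.62 and Slc3a2 at 0.77 were lowest before matching. At 2-fold, 1 of 32 genes of the ATF4 list and 0 of 35 of the XBP1 and ATF6 list were past the threshold, where 1.55% of all genes were.

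**Figure D5:**
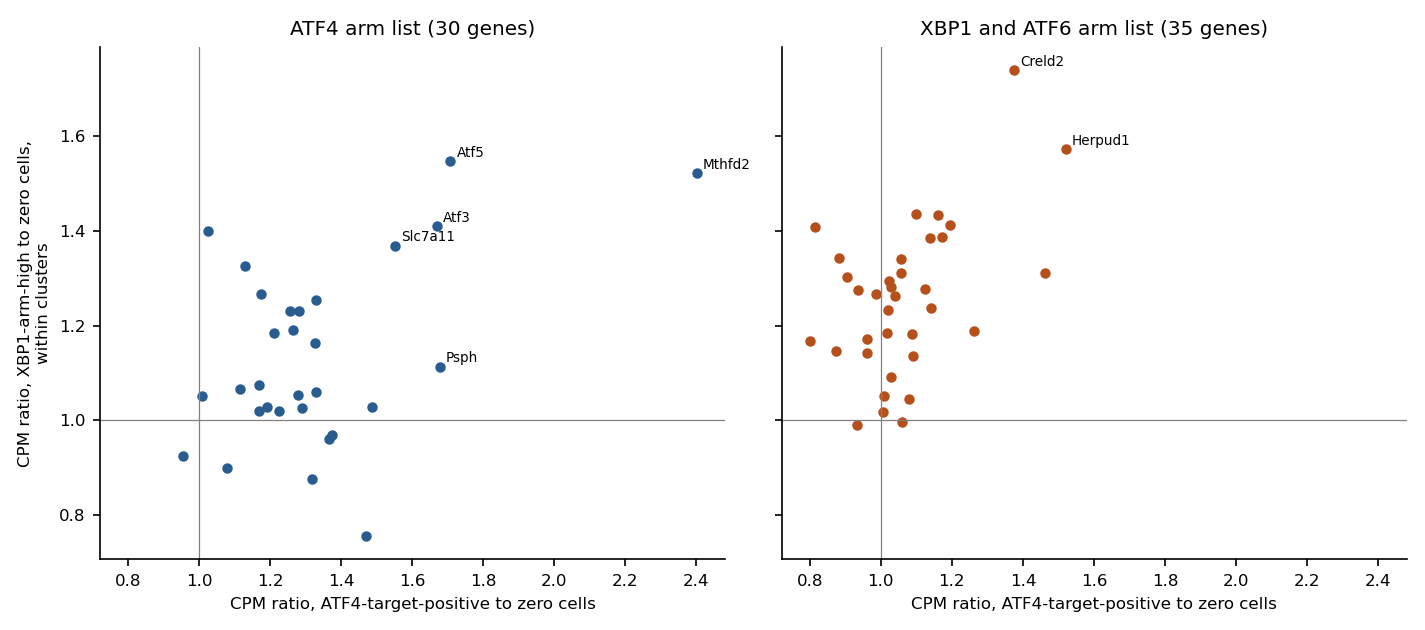
Ratio of CPM in cells with at least 1 ATF4-target UMI to target-zero cells (horizontal axes) and in XBP1-arm-high to XBP1-arm-zero cells of the same cluster (vertical axes), 1 dot per gene that reached 10 CPM over all cells; left, 30 genes of the ATF4 list, right, 35 of the XBP1 and ATF6 list. Mthfd2 stands at 2.40 along the first and 1.52 along the second, and Creld2 and Herpud1 at 1.74 and 1.57 along the second. All ratios include the cells with extreme Hspa5.

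The genes whose counts ran most like those of the 8 were taken from all 7602 genes that averaged 0.02 thinned UMIs or more, by the Pearson correlation of log2(1 + UMIs) over the 13281 cells. For the sum of Xbp1 and Hspa5, the leading genes outside the pathway lists were Fn1 at 0.154, Fstl1 at 0.154, Vim at 0.151, Nrep at 0.150 and Acta2 at 0.141, followed by Spp1, Piezo2, Ccbe1, Hmga2 and Cdc42bpa. For Hspa5 alone Hsp90b1 led, at 0.153. For Xbp1 the leading gene was Sparc, at 0.044. The sum of the 5 ATF4 targets was less like any gene: Gadd45a at 0.041, Snhg5 at 0.040 and Snhg12 at 0.038 led, followed by Ncoa6, Ndrg1, Ctsw, 5430416N02Rik, Eif1, Hspa9 and Snhg1.

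Single ATF4-arm genes gave equally small values. Chac1 ran most like Nupr1 at 0.055, Mthfd2 at 0.051, Asns at 0.045, Eif4ebp1 at 0.044 and Eri1 at 0.042. Asns ran most like Mthfd2, at 0.049. Trib3 was led by F2r at 0.048, Ddit3 by Krt16 at 0.044, Atf4 by Mysm1 at 0.037 and Sesn2 by Ndufs1 at 0.036. All these cells share 1 library, and correlations of this size in sparse counts describe an order only.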

How the data were processed

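Gene expression was measured by droplet 3′ RNA sequencing of 1 culture, listed in GEO as 3 libraries (barcode, expression and scar) with 1 matrix; the sources used here do not say which library supplied its reads. The values the authors deposited are raw UMI counts per gene and barcode, made with Cell Ranger 8.0.1 per the file headers and on build mm10 per the submitters' processing notes, which also name Scanpy 1.8.2. The members and lists were chosen with earlier results of these data known. Features with 1 symbol were summed. Clusters came from 30 principal components, 15 neighbours and the Leiden method at resolution 0.6 (scanpy 1.11.5). Scrublet called 1 cell, so doublets were treated as not removed. A cluster was named where most of a marker list, and at least 3 genes of it, was raised 1.5-fold with 5% detection and 1 marker was among its 10 leading genes, a rule set after the clusters were seen. Named genes are the 8 members, the genes most like them, and, of each wider list, the 5 highest and 2 lowest ratios along each arm among genes with at least 10 CPM in either group (counts in the text use 10 CPM over all cells, a floor set after seeing the data); others of those lists, and the list genes named for clusters, were chosen after their values were seen. High cells have at least 3 thinned UMIs, or 2 where fewer than 100 cells had 3. With 1 culture no test was run. The scan was tested on simulated data. Alternatives changed filters, thinning, seeds, clustering, thresholds and sums.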

Additional observations from a re-analysis of the deposited data

How the results depend on the processing

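In all, 360 alternative values were computed. Of those for the values across the arms and the list counts, 60 stayed within the counting interval or within 1.5 times of the reported value, 28 moved and 0 reversed. A reversal could be counted only where the main interval excluded no difference. It could not be counted for Xbp1 in ATF4-target-high cells, for the co-occurrence shares or for the list counts. The 0 therefore says nothing about their direction. Of the others, 219 stayed, 52 moved and 1 reversed. With no limit on mitochondrial UMIs, values over thinned cells were identical to the reported ones. Those that stayed therefore include alternatives that changed nothing. The ratio of Hspa5 in ATF4-target-high cells, 1.87, was 2.60 with the top 10% of doublet scores left out, 3.87 and 2.22 after thinning to 1000 and 2500 UMIs, 2.37 with another seed, 1.18 from 1 UMI fewer, 9.70 from 1 UMI more (5 cells), 2.39 with Ddit3, Trib3 and Chac1 setting the sum, 1.34 with Atf4 added and 1.35 with the wider list. It was 1.20 without the 10 cells with extreme Hspa5, and 1.04 with 1 UMI fewer as well. The ratio of Xbp1, 1.48, was 3.49 from 1 UMI more and 2.33 with the 3-gene sum. For the 5 targets in XBP1-arm-high cells, 1.44 became 1.22 from 1 UMI fewer, 2.13 from 1 UMI more, 2.26 with Xbp1 alone setting the sum and 1.76 with the wider list. With Xbp1 alone Atf4 reversed, from 1.21 to 0.792. The ratio of co-occurrence shares, 1.59, was 7.13 (2.60 to 15.6) after thinning to 1000 UMIs. From 1 UMI more it was 27.8 (5.69 to 82.0), with only 5 ATF4-target-high cells. The correlation of 0.0527 was 0.119 after thinning to 2500 UMIs, 0.00629 by Spearman and 0.0160 without the 10 cells. List counts here use the planned floor of 10 CPM in either group. With 10 CPM over all cells they were 15 for 22 and 11 for 12 along the ATF4 targets, and 3 for 4 and 10 for 10 along the XBP1 arm. Along the ATF4 targets from 1 UMI fewer, 6 genes of the ATF4 list and 1 of the XBP1 and ATF6 list passed. At 2-fold the XBP1 and ATF6 list had 4 there and 0 along its own arm, where the ATF4 list had 1. Within clusters it had 2. The cause of these shifts was not tested. No paired analysis was possible because there was 1 culture. Alternatives without the 10 cells, the threshold of 1 UMI and the floor over all cells were chosen after seeing the data. With a median of 2955 UMIs, Trib3, Chac1 and Sesn2 are mostly unseen in single cells, so co-occurrence rests on few cells.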
